A study of Mus musculus with 7 samples.

Results

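Genes of the interferon response and of antigen presentation were followed in C2C12 cells transfected with siRNA, to see whether one arm of the knockdown showed an innate response that the other did not. The set was a list of 36 mouse genes given by name. Of these, 25 had a row among the 11642 rows of the expression table, and 21 of the 25 reached the mean level of 0.5 RPKM (read number scaled to gene length and library size) required for testing. C2C12 is a line of myoblasts derived from muscle of C3H mice that fuses into myotubes when serum is reduced. Total RNA was sequenced on day 2 of differentiation from 2 samples that had received 30 nM scramble siRNA (si-SCR 1 and 2). A further 2 samples had received 30 nM of siRNA #1 against the long non-coding RNA lnc-SMaRT (si-SMaRT 1 and 2), all by lipid transfection. The study's text names 2 independent cell populations, and whether the arms shared them is not stated. A pull-down of lnc-SMaRT (probe set #1) and a LacZ control pull-down, 1 library each, are represented by lists of peaks. Both arms received a double-stranded RNA, and untransfected cells were not analysed here, so a response common to both arms could not be measured.

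Cells recognise foreign RNA with receptors such as RIG-I (encoded by Ddx58) and MDA5 (Ifih1) in the cytoplasm and Toll-like receptors in endosomes. These receptors activate the transcription factors Irf3 and Irf7, which induce type I interferon. Secreted interferon acts through its receptor, the kinases Jak1 and Tyk2 and a transcription factor complex that contains Stat2 and Irf9 to raise the transcription of interferon-stimulated genes, among them antiviral effectors and the machinery that loads peptides on MHC class I. Short interfering RNAs can trigger this pathway when their length, ends or base composition resemble those of viral RNA, which is why such genes are inspected in knockdown experiments. Skeletal muscle cells carry little MHC class I at rest and raise it when exposed to interferon.

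The sequences that bear on the question are the siRNA itself and the promoter elements through which interferon acts. The siRNA is shown as the study lists it, 5′ to 3′, with no part in capitals.
siRNA #1: gagaagcagaacaaacagaua
It is 21 nucleotides long with a GC content of 38.1%. The strand shown holds 1 U and its complement, which pairs with it in the duplex, holds 12. Neither holds UGUGU, a pentamer known from immunostimulatory siRNAs. In the transcripts of GENCODE M21 it had a full match, in sense, only in Gm14635, the gene of lnc-SMaRT, at positions 878 to 898 of the 1409-nucleotide exonic transcript, which is chrX:12340293-12340313 on the minus strand of GRCm38. The scramble sequence was not used here, so the arms could not be compared in sequence.

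The core of the interferon-stimulated response element, searched as GAAA, any 2 bases and GAAA on both strands with overlapping matches allowed, was looked for from 250 bases before to 50 bases after the gene start in RefSeq promoters of GRCm38.p6. Promoters were matched for 28 of the 36 genes (not for Nlrc5, Dhx58, Usp18, Mx1, Ifi27, Parp9, Parp14 and Tap2). The core was present in 11 of the 28 (39.3%), against 3.99% of all 27025 genes with a promoter and 3.51% of the 8809 that also had a row in the expression table. It was present in 6 of 21 matched genes with a row (28.6%) and in 5 of 7 without one (71.4%). A few sites are shown in the direction of the gene with the core in capitals, which reads TTTC, 2 bases and TTTC where it lies on the other strand, first for 3 genes that had a row and then for 3 that had none.
Bst2, chr8:71537577-71537606, minus strand: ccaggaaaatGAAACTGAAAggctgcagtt
B2m, chr2:122147538-122147567, plus strand: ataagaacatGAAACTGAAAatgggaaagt
Stat2, chr10:128270266-128270295, plus strand: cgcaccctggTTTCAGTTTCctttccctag
Ifit1, chr19:34640794-34640823, plus strand: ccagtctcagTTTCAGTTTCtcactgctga
Isg15, chr4:156200865-156200894, minus strand: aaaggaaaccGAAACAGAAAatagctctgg
Oas1a, chr5:120907520-120907549, minus strand: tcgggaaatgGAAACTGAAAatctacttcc
The Bst2, B2m and Oas1a sites carry the same 10 letters, and the Stat2 and Ifit1 sites carry them on the other strand. Of these genes, B2m was the most abundant of the 25 with a row, whereas Oas1a and Ifit1 had no row. A match is only a description of letters, and binding was not measured.

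The knockdown, the cell identity and the depth were checked first. Lnc-SMaRT stood at 19.1 and 15.9 RPKM in si-SCR 1 and 2 and at 2.88 and 3.65 RPKM in si-SMaRT 1 and 2, a log2 fold change of −2.39 (SE 0.28, adjusted p = 0.000882, limma). All 9 myotube markers had a row, and their summed level was 15870 and 14869 RPKM in si-SCR against 10109 and 6885 RPKM in si-SMaRT, with 7 of the 9 lower without overlap, where 20.2% of all rows were so. Of 13 leukocyte marker symbols (Adgre1 and Emr1 name 1 gene), Cd68 and Itgam had a row, with a summed level of 1.34 to 1.63 RPKM in si-SCR and 1.14 to 1.34 RPKM in si-SMaRT. Itgam was the lower in si-SMaRT, at 0.208 and 0.252 RPKM against 0.496 and 0.555 RPKM, and Ptprc had no row. None of 5 endothelial markers had a row. The reads recovered from the RPKM values came to at least 12914255 and 14252857 in si-SCR 1 and 2 and to 10934881 and 13906129 in si-SMaRT 1 and 2. The si-SMaRT samples differed from each other more than the si-SCR samples did, with a standard deviation of the log2 difference over 11086 genes of 0.613 against 0.278, and that difference followed the GC content of the genes. By the study's read statistics, si-SMaRT 1 lost a larger share of its read pairs to the rRNA and tRNA filter than any other of these samples. Whether this bears on the difference between the si-SMaRT samples was not tested. In bulk RNA, a smaller number of cells of a type and less RNA per cell cannot be told apart.

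None of the 21 tested genes differed between si-SMaRT and si-SCR past the adjusted threshold of 0.05. Bst2, which tethers budding virions to the cell surface, came nearest, at 0.426 times its si-SCR level, and the MHC class I heavy chain H2-K1 followed at 0.553 times. Genes that encode RNA sensors and RNA-binding effectors had values above 0 in all 6 tested cases, at log2 fold changes of 0.054 to 0.56, and none of them passed. Among these, Oasl2 may have had its row only through si-SMaRT, and Ddx58 and Ifit2 turned below 0 with the GC trend removed. The share of all genes tested with a value above 0 was not counted. The test was limma on log2(RPKM + 0.1), with Benjamini-Hochberg adjustment over all 11086 genes tested, of which 56 (0.505%) passed. Without adjustment, 4 of the 21 genes had p below 0.05, all of them lower in si-SMaRT (Bst2, H2-K1, Ifi35 and Irf3), where 9.09% of all genes tested did so in either direction. On the recovered reads, limma with voom weights also called 0 of the 21, where 0.983% of all genes passed. The median log2 fold change of the 21 was −0.0042 and that of all genes tested was 0.02, with 10 of the 21 above 0 and 11 below.

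**Figure D1:**
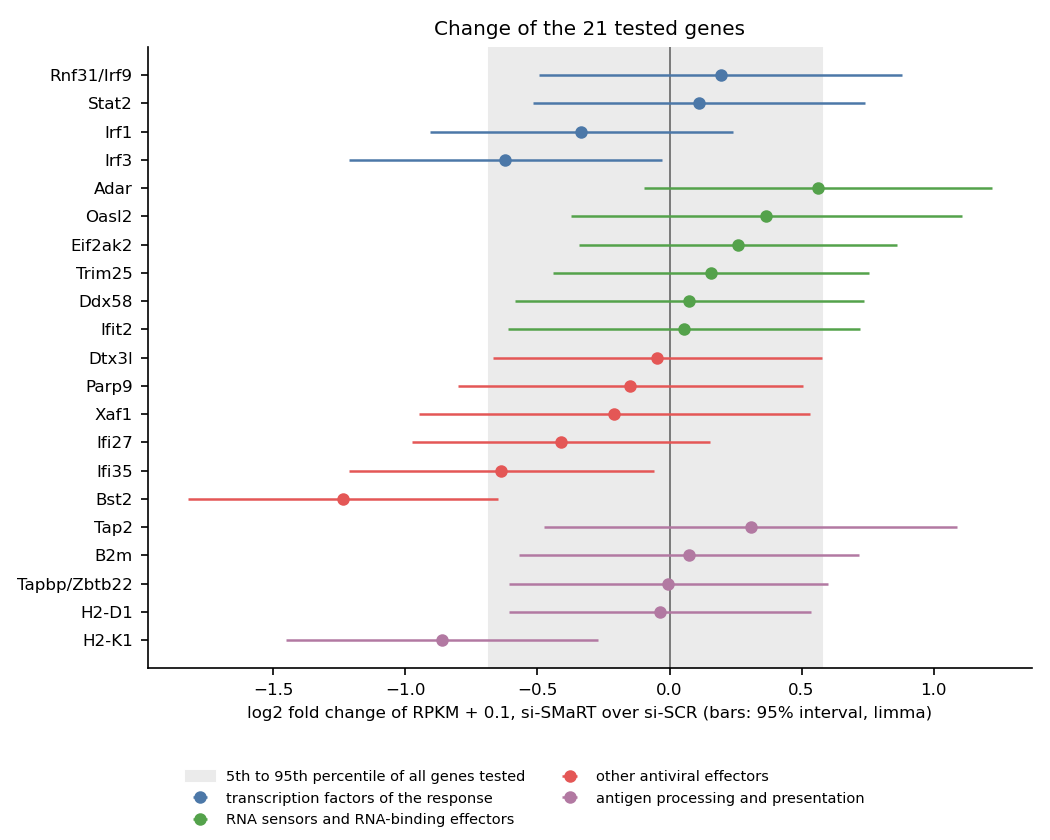
Log2 fold change of RPKM + 0.1, si-SMaRT over si-SCR, of the 21 tested genes, ordered within their roles (colours). Points are limma estimates from 2 samples per group, bars are 95% intervals, and the grey band spans the 5th to the 95th percentile of all genes tested (−0.682 to 0.576). The intervals of Bst2, H2-K1, Ifi35 and Irf3 lie below 0, and those of the other 17 genes include 0.

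The intervals bound the difference between the arms for each of the 21 tested genes, but not a response as a whole. They do not cover the 11 genes without a row or the 4 rows too low for testing. The rows of Irf9 and Tapbp each also hold another gene. Over the 21 genes the upper ends of the 95% intervals of the fold, which bound a higher level in si-SMaRT, ran from 0.637 for Bst2 to 2.33 for Adar. The lower ends, which bound a higher level in si-SCR, ran from 0.282 for Bst2 and 0.366 for H2-K1 to 0.935 for Adar. For Ifit2, a classical interferon-induced gene, the interval was 0.654 to 1.65. Groups did not overlap for 5 of the 25 genes with a row that were higher in both libraries of the knockdown (Ifih1, Adar, Oasl2, Parp14 and Tap1), where 20.6% of all rows were so, and for 6 that were lower (Irf1, Irf3, Bst2, Ifi27, Ifi35 and H2-K1), where 20.2% were so. These counts lie near the background. Tap1 met the authors' filter only through si-SMaRT, and Oasl2 may have done so too. A fit that leaves out a si-SMaRT sample took its spread from the si-SCR pair alone. That pair varied less than the si-SMaRT pair (standard deviation of the log2 difference 0.278 against 0.613). More of all genes passed whichever si-SMaRT sample was left out, against 0.505% in the main fit. The calls of these fits therefore cannot show that a single library decided a gene. Without si-SMaRT 1, 6 of the 21 genes passed, namely the 6 just named as lower, but 26.2% of all genes passed too. Without si-SMaRT 2, Bst2 and H2-K1 passed as lower and Tap2 as higher, with 8.49% of all genes passing. In a fit from which each library's GC trend had been taken out, Bst2 (log2 fold change −1.09, adjusted p = 0.0046) and H2-K1 (−0.74, adjusted p = 0.0306) passed, with 4.49% of the 10456 genes of known GC content.

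**Figure D2:**
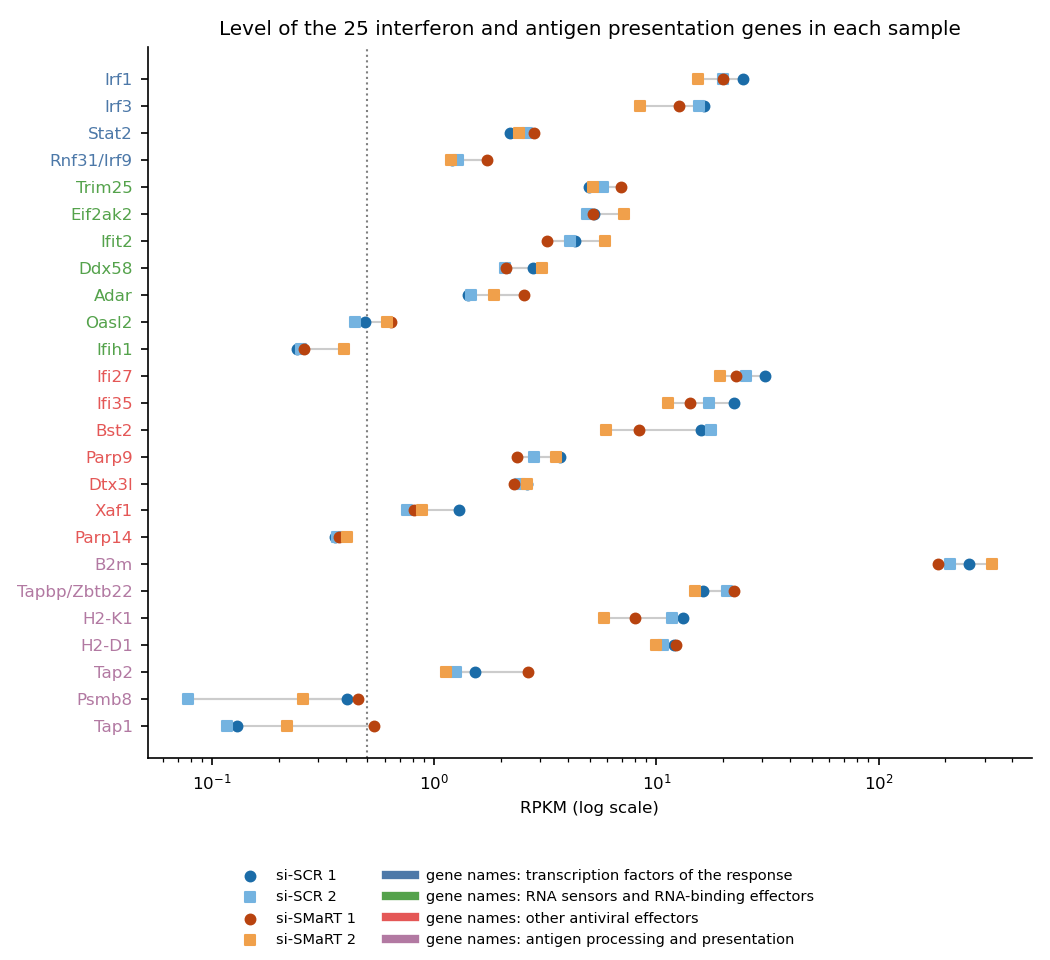
RPKM of the 25 genes with a row in each of the 4 samples, on a log scale, ordered by the si-SCR mean within roles (colours of the names), with the mean level required for testing dotted at 0.5 RPKM. B2m lies between 185 and 324 RPKM, 4 genes have means below 0.5 RPKM, and the si-SMaRT points of Bst2 and H2-K1 lie to the left of both si-SCR points.

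The 11 genes without a row included several known for strong induction by interferon. They were Irf7, Nlrc5, Dhx58, Oas1a, Ifit1, Ifit3, Isg15, Usp18, Mx1, Rsad2 and Psmb9. Isg15 encodes a ubiquitin-like modifier, Usp18 removes it, Mx1 is a GTPase against RNA viruses in the nucleus, and Rsad2 encodes viperin. Oas1a makes the oligoadenylates that activate RNase L, Ifit1 recognises viral 5′ ends, and Ifit3 belongs to the same family as Ifit1. Dhx58 is the third helicase of the RIG-I family, Irf7 amplifies interferon transcription, Nlrc5 activates MHC class I genes, and Psmb9 is an inducible proteasome subunit. The authors removed genes of low CPM (read counts scaled to library size only), and among the 5906 rows whose length could be matched to the gene models, every row had at least 1 CPM in 2 or more of the 4 samples. A level of 1 CPM was 11.3 to 14.3 reads in these libraries. A gene at that level in both samples of one arm would meet that limit, but why these 11 genes had no row was not tested.

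Among the transcription factors of the response, 4 of 6 had a row and all 4 were tested. Irf1 is itself induced by interferon and drives MHC class I genes. It stood at 24.4 and 19.9 RPKM in si-SCR 1 and 2 and at 19.8 and 15.4 RPKM in si-SMaRT 1 and 2, a log2 fold change of −0.33 (SE 0.27, adjusted p = 0.797). The si-SCR 2 and si-SMaRT 1 values of Irf1 were nearly equal. Irf3, the constitutive factor that RNA sensors activate, stood at 16.3 and 15.5 RPKM in si-SCR and at 12.6 and 8.46 RPKM in si-SMaRT (log2 fold change −0.62, SE 0.28, adjusted p = 0.508). The groups did not overlap, and si-SMaRT 2 was the lowest of the 4 samples. Irf9, the DNA-binding subunit of the complex with Stat2, shared its row with the overlapping gene Rnf31, so its own level could not be separated. That row stood at 1.2 and 1.28 RPKM in si-SCR and at 1.72 and 1.19 RPKM in si-SMaRT, with overlapping groups and a log2 fold change of 0.19 (SE 0.33, adjusted p = 0.912). Stat2 ranged from 2.19 to 2.80 RPKM over the 4 samples, with a log2 fold change of 0.11 (SE 0.30, adjusted p = 0.949). The summed level of the 4 rows was 44.2 and 39.3 RPKM in si-SCR and 37.0 and 27.4 RPKM in si-SMaRT, most of it from Irf1 and Irf3.

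Among the RNA sensors and RNA-binding effectors, 7 of 11 had a row and 6 were tested. All 6 had a log2 fold change above 0, with a median of 0.21, and none passed the test. Adar, which edits adenosine to inosine in double-stranded RNA, stood at 1.42 and 1.46 RPKM in si-SCR 1 and 2 and at 2.53 and 1.86 RPKM in si-SMaRT 1 and 2, a log2 fold change of 0.56 (SE 0.31, adjusted p = 0.625). Its groups did not overlap, and si-SMaRT 1 was the highest sample. Oasl2, an antiviral protein of the oligoadenylate synthetase family, stood at 0.489 and 0.438 RPKM in si-SCR and at 0.639 and 0.612 RPKM in si-SMaRT, from at least 12, 12, 14 and 17 reads, which are lower limits because the gene length behind its row was not known. Its log2 fold change was 0.37 (SE 0.35, adjusted p = 0.832). Both si-SMaRT values were the higher. On those lower limits both si-SCR samples lay under 1 CPM (12.7 and 14.1 reads). The si-SMaRT samples were at 1 CPM or more (11.3 and 14.3 reads). Oasl2 may thus have had its row only through the arm in which it was higher, which limits what its test can show. Eif2ak2, which encodes the double-stranded RNA-dependent kinase PKR, stood at 5.26 and 4.89 RPKM in si-SCR and at 5.18 and 7.13 RPKM in si-SMaRT, so that only si-SMaRT 2 stood apart, with a log2 fold change of 0.26 (SE 0.28, adjusted p = 0.857).

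The cytoplasmic helicase sensors and Ifit2 differed more between the si-SMaRT samples than between the group means. Ddx58 stood at 2.77 and 2.09 RPKM in si-SCR and at 2.11 and 3.05 RPKM in si-SMaRT (log2 fold change 0.076, SE 0.31, adjusted p = 0.969). Ifih1 lay below the level for testing, at 0.242 and 0.251 RPKM in si-SCR and at 0.260 and 0.394 RPKM in si-SMaRT. Ifit2, which binds viral RNA and restrains its translation, stood at 4.29 and 4.07 RPKM in si-SCR and at 3.20 and 5.87 RPKM in si-SMaRT, so that the lowest and the highest value both came from si-SMaRT. Its log2 fold change was 0.054 (SE 0.32, adjusted p = 0.980). With the GC trend removed, Ddx58 and Ifit2 turned to −0.011 and −0.088, and the other 4 kept their sign. Trim25, the ubiquitin ligase that activates RIG-I, ranged from 4.99 to 6.90 RPKM with overlapping groups. The summed level of the 7 rows was 19.4 and 18.9 RPKM in si-SCR and 20.8 and 24.1 RPKM in si-SMaRT.

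Among the other antiviral effectors, 7 of 11 genes had a row and 6 were tested, all 6 with a log2 fold change below 0 and a median of −0.31, and none passed the test. Bst2 (GRCm38 chr8:71534255-71537456, minus strand) stood at 15.9 and 17.6 RPKM in si-SCR 1 and 2 and at 8.35 and 5.94 RPKM in si-SMaRT 1 and 2, from at least 344 reads in the si-SCR and at least 137 in the si-SMaRT samples. Its log2 fold change was −1.24 (SE 0.28, 95% interval −1.82 to −0.65, adjusted p = 0.0583), and no si-SMaRT value came near a si-SCR value. Leaving out each sample in turn gave −1.48 to −0.996. Ifi35, an interferon-induced leucine zipper protein, stood at 22.3 and 17.3 RPKM in si-SCR and at 14.1 and 11.2 RPKM in si-SMaRT (log2 fold change −0.64, SE 0.27, adjusted p = 0.480). Ifi27, a small interferon-inducible membrane protein, stood at 30.8 and 25.2 RPKM in si-SCR and at 22.8 and 19.2 RPKM in si-SMaRT (log2 fold change −0.41, SE 0.27, adjusted p = 0.706). In Ifi35 and Ifi27 the groups did not overlap, but si-SCR 1 and si-SCR 2 were farther apart than si-SCR 2 and si-SMaRT 1.

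Xaf1, Parp9 and Dtx3l varied between samples of one group as much as between the groups. Xaf1, an antagonist of apoptosis inhibitors, ranged from 0.755 to 1.30 RPKM, with both extremes in si-SCR. Parp9 and Dtx3l, which form a complex of an ADP-ribosyltransferase and a ubiquitin ligase and overlap at their starts on chr16:35926511-35972605, had log2 fold changes of −0.15 (SE 0.31) and −0.047 (SE 0.29). Parp14, a related ADP-ribosyltransferase, lay between 0.357 and 0.405 RPKM in all 4 samples and was not tested. The summed level of the 7 rows was 77 and 66.5 RPKM in si-SCR and 51.1 and 43.9 RPKM in si-SMaRT, so it was lower in both si-SMaRT samples. The summed myotube markers were also lower in both si-SMaRT samples, as given above, and their part in this difference was not tested.

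Antigen processing and presentation genes spanned an abundant light chain and scarce peptide transporters. Of 8 genes, 7 had a row and 5 were tested, with a median log2 fold change of −0.0042 and none past the threshold. Of the 7, 6 lie in the MHC region of chromosome 17, from the start of Tapbp at 33915899 to the end of H2-D1 at 35267499, and B2m lies on chromosome 2. B2m, the light chain shared by all MHC class I molecules, stood at 257 and 211 RPKM in si-SCR 1 and 2 and at 185 and 324 RPKM in si-SMaRT 1 and 2, above 98.0% of all rows in si-SCR. The si-SMaRT samples held both its lowest and its highest value, and its log2 fold change was 0.074 (SE 0.30, adjusted p = 0.969). H2-K1 (chr17:33996017-34000347, minus strand), a heavy chain, stood at 13.2 and 11.8 RPKM in si-SCR and at 8.05 and 5.79 RPKM in si-SMaRT (log2 fold change −0.86, SE 0.28, 95% interval −1.45 to −0.27, adjusted p = 0.257). H2-D1, the other classical heavy chain with a row, stood at 12 and 10.7 RPKM in si-SCR and at 12.3 and 9.92 RPKM in si-SMaRT (log2 fold change −0.036, SE 0.27, adjusted p = 0.982). The heavy chains thus lay at similar levels in si-SCR, and in si-SMaRT H2-K1 lay below H2-D1 in each sample. H2-K1 and H2-D1 are near-identical in parts of their sequence, and the reads were aligned to a reference of the C57BL/6J strain while the C2C12 line comes from C3H mice with another H2 haplotype, so the division of reads between them is uncertain, and its effect was not tested.

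The genes that supply peptides to MHC class I lay below B2m. Tapbp, which encodes the chaperone tapasin, shared its row with the overlapping gene Zbtb22, and that row stood at 16.2 and 20.7 RPKM in si-SCR and at 22.4 and 14.9 RPKM in si-SMaRT, with a log2 fold change of −0.0042 (SE 0.29, adjusted p = 0.998). Tap2, a subunit of the peptide transporter, stood at 1.53 and 1.25 RPKM in si-SCR and at 2.65 and 1.13 RPKM in si-SMaRT (log2 fold change 0.31, SE 0.37, adjusted p = 0.869), and si-SMaRT 1 alone stood apart. Its partner Tap1 stood at 0.13 and 0.116 RPKM in si-SCR and at 0.534 and 0.217 RPKM in si-SMaRT, from 9, 9, 33 and 17 reads. Tap1 was too low for the main test. A level of 1 CPM was 12.7 and 14.1 reads in si-SCR 1 and 2 and 11.3 and 14.3 reads in si-SMaRT 1 and 2, so Tap1 had its row only through the arm in which it was higher, and no test of it is given. Both Tap genes were highest in si-SMaRT 1. Psmb8, an inducible catalytic subunit of the proteasome, stood at 0.404 and 0.0776 RPKM in si-SCR and at 0.453 and 0.255 RPKM in si-SMaRT, where the si-SCR 2 value came from at least 3 reads. The summed level without B2m was 43.5 and 44.7 RPKM in si-SCR and 46.3 and 32.2 RPKM in si-SMaRT.

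Interferon exchanges catalytic subunits of the proteasome for inducible ones, so the inducible subunits were set beside the constitutive ones they replace. Psmb8 lay at 0.205% and 0.0433% of the level of Psmb5, whose row also holds Mir686, in si-SCR 1 and 2 and at 0.362% and 0.298% in si-SMaRT 1 and 2. The Psmb5 row itself was lower in si-SMaRT, at 125 and 85.6 RPKM against 197 and 179 RPKM in si-SCR. The groups of Psmb8 overlapped, from at least 14 and 3 reads in si-SCR and 14 and 10 reads in si-SMaRT. Psmb10, the inducible counterpart of Psmb7, lay at 32.7 and 27.2 RPKM in si-SCR and at 25 and 14.5 RPKM in si-SMaRT. It came to 11.2% and 11.4% of Psmb7 in si-SCR and to 14.2% and 6.90% in si-SMaRT, so its share differed more between the si-SMaRT samples than between the groups. The counterpart of Psmb6, Psmb9, had no row. The 14 constitutive core subunits all had log2 fold changes below 0, with a median of −0.32 and none past the threshold. Psmb5 gave the lowest of these, −0.86 (SE 0.28, adjusted p = 0.258).

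**Figure D3:**
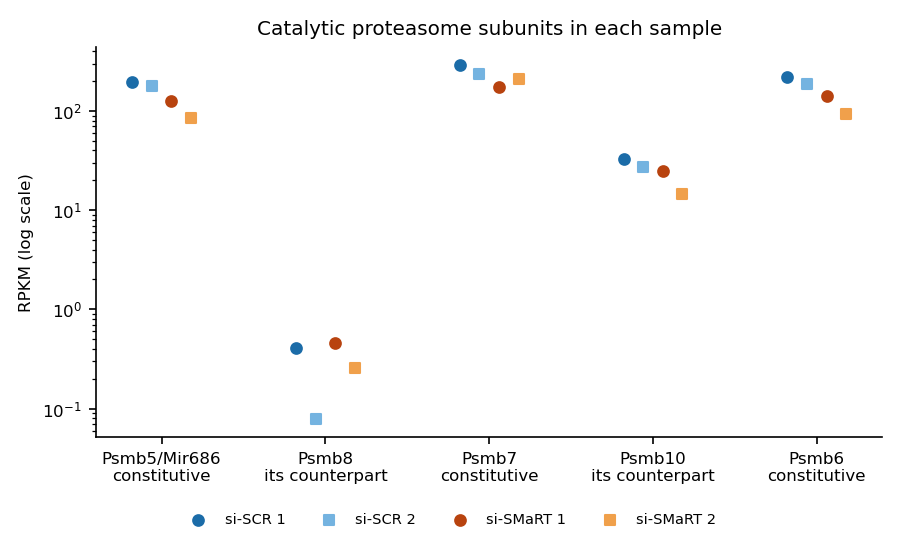
RPKM of catalytic proteasome subunits in each sample on a log scale, with the inducible subunits Psmb8 and Psmb10 beside the constitutive subunits Psmb5 and Psmb7, and Psmb6, whose counterpart had no row. The constitutive subunits lie between 85.6 and 293 RPKM, Psmb10 between 14.5 and 32.7 RPKM and Psmb8 below 0.5 RPKM in all 4 samples.

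Related lists were read in the same fit, and none of their genes passed the adjusted threshold. For the ligands, receptors, kinases and feedback of interferon signalling, 19 of 30 genes had a row (18 rows, all tested), with a median log2 fold change of 0.043. The 9 ligand genes listed (Ifnb1, Ifna1, Ifna2, Ifna4, Ifna5, Ifne, Ifng, Ifnl2 and Ifnl3) had none. The type I receptor was expressed, with Ifnar1 between 8.29 and 8.87 RPKM over the 4 samples and the row that joins Ifnar2 with Gm21970 and Il10rb between 4.91 and 5.51 RPKM. The type II receptor genes Ifngr1 and Ifngr2 lay between 8.82 and 13.7 RPKM. Of the kinases, Jak1 lay between 11.5 and 14.3 RPKM and Tyk2 between 2.33 and 5.58 RPKM, the latter with the lowest log2 fold change of the list, −0.60 (SE 0.32, adjusted p = 0.607). The receptor and its kinases were thus present in both arms, without a ligand row.

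For sensors and regulators of nucleic acid sensing, 24 of 33 genes had a row and 23 were tested, with a median log2 fold change of −0.049. Tlr3, Tlr7, Tlr8 and Tlr9, the Toll-like receptors that recognise nucleic acids, had no row. The lowest value was that of the Z-form nucleic acid sensor Zbp1, −0.97 (SE 0.38, adjusted p = 0.395), at 0.784 and 0.742 RPKM in si-SCR and at 0.226 and 0.495 RPKM in si-SMaRT. The highest was that of Ago2, the slicer of RNA interference, 0.50 (SE 0.28, adjusted p = 0.627). Without adjustment, Zbp1 alone of the 23 had p below 0.05, where 9.09% of all genes tested did so.

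Other interferon-stimulated genes gave 43 rows for 45 of 78 genes, of which 36 were tested, with a median log2 fold change of 0.072. Tgtp2, an interferon-inducible GTPase, had the highest value, 0.82 (SE 0.34, adjusted p = 0.444), at 0.861 and 0.626 RPKM in si-SCR and at 1.15 and 1.64 RPKM in si-SMaRT. Ifitm1, a membrane protein that hinders viral entry, had the lowest, −0.63 (SE 0.28, adjusted p = 0.50), at 22.5 and 15.3 RPKM in si-SCR and at 12.4 and 11.6 RPKM in si-SMaRT. Without adjustment, 2 of the 36 had p below 0.05 as higher and 1 as lower, where 9.09% of all genes tested did so in either direction. The chemokine genes Cxcl10 and Ccl5, often used as readouts of the response, had no row.

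Other antigen processing and presentation genes had a row for 25 of 38 genes, and 23 were tested, with a median log2 fold change of −0.059. The lowest value was that of the non-classical class I gene H2-T22, −0.65 (SE 0.29, adjusted p = 0.492), and the highest that of Pdia3, an oxidoreductase of the peptide-loading complex, 0.43 (SE 0.27, adjusted p = 0.691). The MHC class II genes H2-Aa, H2-Ab1 and H2-Eb1, with Cd74 and their activator Ciita, had no row. For NF-kB factors and targets, 16 of 23 genes had a row and all 16 were tested, with a median of −0.018. Ptgs2, which encodes cyclooxygenase-2, had the highest value, 0.97 (SE 0.32, adjusted p = 0.258), at 2.50 and 2.35 RPKM in si-SCR and at 3.62 and 6.45 RPKM in si-SMaRT. The inhibitor gene Nfkbib had the lowest, −0.51 (SE 0.30, adjusted p = 0.651), and the cytokine genes Il6, Tnf, Il1a and Il1b had no row.

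The lists held no chemokine gene with a row, but 7 such genes outside them had one, and 2 of the 7 were called higher in si-SMaRT, where 0.505% of all genes passed. They were looked at after their values were seen. Cxcl5, a neutrophil attractant, stood at 0.812 and 0.428 RPKM in si-SCR and at 2.19 and 3.08 RPKM in si-SMaRT. It came from at least 17, 10, 41 and 73 reads. On these lower limits si-SCR 2 lay under 1 CPM (14.1 reads). Cxcl5 may thus have met the authors' filter only with samples of the arm in which it was higher. That limits what its test can show (log2 fold change 1.96, SE 0.35, adjusted p = 0.0177, limma). Ccl7, a monocyte attractant, stood at 3.45 and 2.03 RPKM in si-SCR and at 7.41 and 9.59 RPKM in si-SMaRT (log2 fold change 1.63, SE 0.31, adjusted p = 0.0232). In both genes every si-SMaRT value lay above every si-SCR value. Without si-SCR 2 the adjusted p was 0.698 for Cxcl5 and 1 for Ccl7, and without si-SCR 1 it was 0.0876 for Ccl7. Ccl2, another monocyte attractant, stood at 5.49 and 4.04 RPKM in si-SCR and at 10.3 and 13.6 RPKM in si-SMaRT, with a log2 fold change of 1.31 (SE 0.29, adjusted p = 0.0528). Ccl9 had a log2 fold change of 1.2 (SE 0.29, adjusted p = 0.077). With the GC trend removed, Ccl2 and Ccl9 passed as well (adjusted p = 0.00684 and 0.0202). The groups of Cxcl12 (0.56, SE 0.29, adjusted p = 0.604) did not overlap, and those of Ccl25 and Cx3cl1 did. The myotube markers were lower in the same samples, as given above, and their part in the chemokine differences was not tested.

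**Figure D4:**
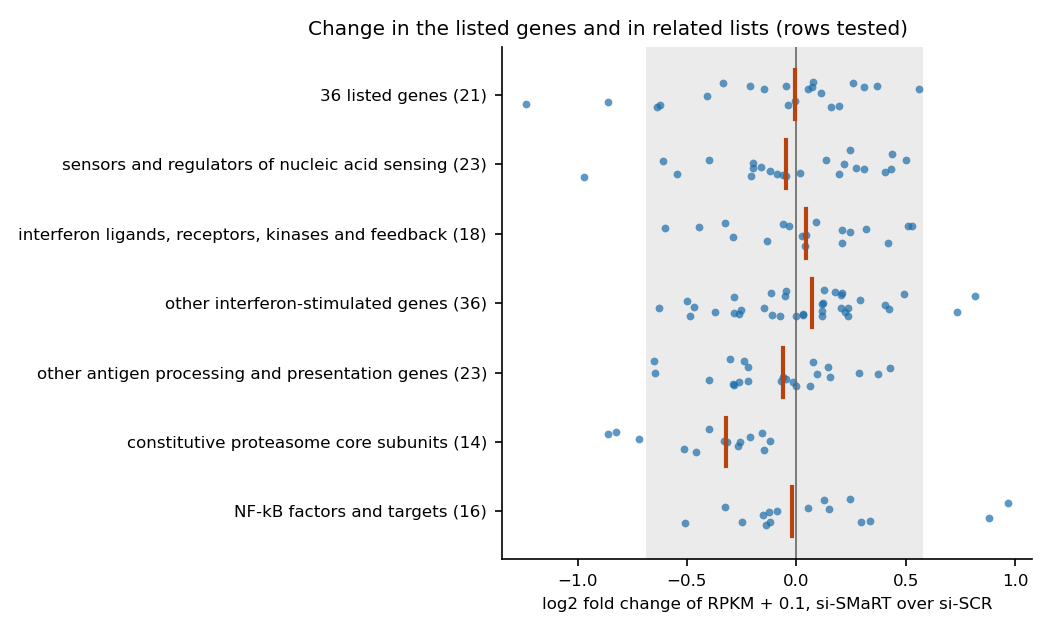
Log2 fold change of RPKM + 0.1, si-SMaRT over si-SCR, of each tested row of the 36 genes and of 6 related lists, with the number of rows in brackets, medians as vertical bars and the 5th to the 95th percentile of all genes tested in grey. Medians lie between −0.059 and 0.072, apart from that of the constitutive proteasome core subunits at −0.32.

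The si-SMaRT samples also differed from each other in the listed genes. The log2 difference between si-SMaRT 2 and si-SMaRT 1 ran from 0.85 (Ifit2) and 0.80 (B2m) down to −1.16 (Tap2) over the 21 tested genes. All 10 genes with an exonic GC content over 52% had less in si-SMaRT 2, the median difference being −0.45, and 6 of the 7 genes under 48% were higher, with a median of 0.45. Over the 21 genes Spearman's rho of this difference with GC content was −0.886 and Pearson's r was −0.913. Over 10456 tested genes with a known GC content rho was −0.845, so the listed genes followed the whole transcriptome. For the si-SCR samples rho was 0.309 over the 21 genes and 0.355 over all. These correlations are across genes that share libraries and are not independent replicates. B2m (41.2% GC) and Ifit2 (42.4%) were higher in si-SMaRT 2, as most genes under 48% GC were, and Tap2 (57.2%) and the row of Tapbp with Zbtb22 (57.9%) were lower, as most genes over 52% were. The part of GC content in the differences between the groups was not tested. The fit with the trend removed, above, takes out any difference that follows GC content, whatever its source, so it cannot give that part. Bst2 (56.0%) and H2-K1 (54.7%) were lower than in si-SCR in both si-SMaRT samples.

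**Figure D5:**
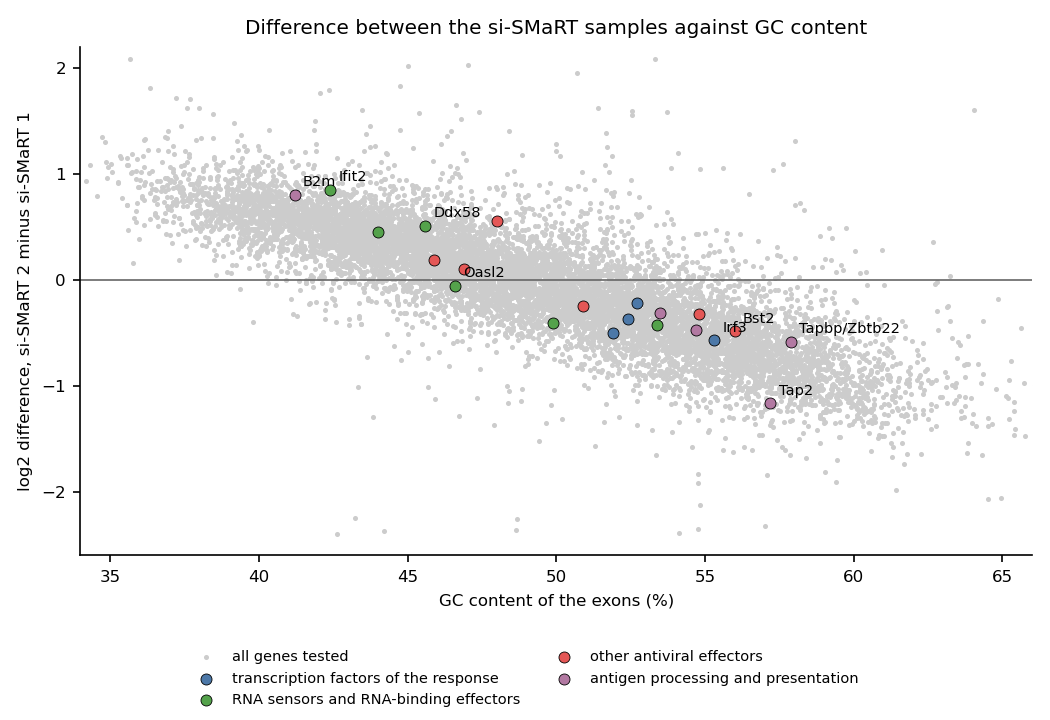
Log2 difference of RPKM + 0.1 between si-SMaRT 2 and si-SMaRT 1 against the GC content of the exons, for the 21 tested genes (colours give the role) and all genes tested with a known GC content (grey, 54 of them outside the axes). The listed genes run from above 0.8 near 42% GC to −1.16 at 57.2% GC, along the grey cloud.

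Promoter elements and pull-down peaks were set beside these values. The tested genes whose promoter held the core of the response element were Bst2 (log2 fold change −1.24), B2m (0.074), Ddx58 (0.076), Eif2ak2 (0.26) and Stat2 (0.11), of which Bst2 alone had an unadjusted p below 0.05, where 9.09% of all genes tested did so. The list of the lnc-SMaRT pull-down held 345 peaks and that of the LacZ pull-down 336, and none lay on the body and strand of any of the 36 genes. With peaks of p below 0.001 (172 and 175 peaks) there was again none. Each list came from 1 library, so this count has no replicate check. The share of all genes with a peak was not counted, so the absence of peaks says nothing particular about the 36 genes.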

How the data were processed

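RNA-seq of 2 si-SCR and 2 si-SMaRT samples was analysed. The authors used Trimmomatic for trimming, Bowtie2 to discard rRNA and tRNA and TopHat2 for alignment to GRCm38, counted Ensembl 77 genes with HTSeq (stranded library), removed genes of low CPM and deposited RPKM values made with edgeR. The deposited peak lists give 1 p-value per peak, from Piranha (bin size 200 bases) run by the authors on 1 library each; the covariate used is not stated in the lists.

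From these, log2(RPKM + 0.1) of genes with a mean of at least 0.5 RPKM entered limma (version 3.58.1, R 4.3.3; trended prior variance, Benjamini-Hochberg, threshold 0.05). This scale understates changes of low genes. The whole-multiple steps of the RPKM values gave reads for 11642 rows within 0.01 reads; 5906 rows took the gene length of GENCODE M21 and the others the smallest whole reads, which are lower limits. Intervals from reads would cover counting error only. GC content came from GENCODE M21 exons, and the trend was removed by loess with span 0.3. Fits and read recovery were tested on simulated data.

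Members and lists were chosen with earlier results of these data known. Per-sample values are given for the 5 highest and 5 lowest changes and the 5 highest si-SCR levels of the tested members, and for members of few reads; of each related list, the genes with the highest and the lowest change are named, and receptors and kinases by level; the gene with the highest change of the signalling list is not reported here. Genes named for having no row, Psmb6, Psmb7, Psmb10, Parp14, the chemokine genes, Ddx58, Ifih1, Ifit2 and the range values of others were chosen after their values were seen. Whether the arms shared cell populations is not stated, and p-values measure the spread between 2 samples per group. The replicate number was not used as a pair. Alternatives were other pseudocounts, filters, normalizations and prior variance, a block, samples left out, the GC trend removed and voom. The pull-down input and the scramble sequence were not used here. Other steps used matplotlib 3.10.9, scipy 1.17.1, pandas 2.3.3 and Python 3.11.15.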

Additional observations from a re-analysis of the deposited data

How the results depend on the processing

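Lnc-SMaRT stayed lower and past the threshold under all 13 alternatives that gave it a value (−2.55 to −2.11); the 3 with the GC trend removed gave none, because its row has no GC content there. Over the whole table, 56 genes passed, against 37 with quantile normalization, 109 with voom, 469 with the GC trend removed and 24 to 2908 with 1 sample left out; a lone si-SMaRT sample was then assumed to vary like the si-SCR pair. Of the 21 members 0 passed, against 2 with the GC trend removed and 0 to 6 with 1 sample left out. Samples of 1 number did not deviate together (correlation −0.362 over 11086 genes), and the numbers were not taken as pairs. The GC trends, which ran in opposite directions in si-SMaRT (rho −0.845) and si-SCR (rho 0.355), were not removed for that correlation. It therefore cannot decide whether the numbers mark pairs. With the replicate block 96 genes and 0 members passed, and 148 genes and 1 member (Bst2) when the GC trend was removed too. With the replicate block crossed, chosen after seeing the data, 487 genes and 2 members passed, and 1055 genes and 5 members with the GC trend removed too. The members' median of −0.0042 was 0.0139 with quantile normalization, −0.0808 with the GC trend removed, 0.0737 with no filter on low values, which adds 4 genes, and −0.151 to 0.0485 with 1 sample left out. Signs turned with the GC trend removed, with or without either block, for Ddx58 (−0.0113), Ifit2 (−0.0875), B2m (−0.0808), Tapbp (0.162) and H2-D1 (0.0648), and with quantile normalization for Tapbp (0.0139). With 1 sample left out they turned within the ranges −0.0539 to 0.442 (Irf9), −0.00794 to 0.232 (Stat2), −0.181 to 0.332 (Ddx58), −0.0429 to 0.358 (Trim25), −0.373 to 0.481 (Ifit2), −0.565 to 0.145 (Xaf1), −0.428 to 0.131 (Parp9), −0.142 to 0.0494 (Dtx3l), −0.274 to 0.889 (Tap2), −0.294 to 0.286 (Tapbp), −0.329 to 0.476 (B2m) and −0.19 to 0.118 (H2-D1). The cause was not tested. Bst2, H2-K1, Ifi35, Irf3, Ifi27, Irf1, Adar, Oasl2 and Eif2ak2 kept their sign under every alternative that gave them a value. With the longer response element (the core followed by CT), 5 of 28 promoters matched (17.9%) against 0.303% of all. Cxcl5 passed under 15 of 16 alternatives and Ccl7 under 13, the other 3 being quantile normalization (adjusted p = 0.0565) and either si-SCR sample left out; with 1 sample left out Ccl25 ranged from −0.0187 to 0.325 and Cx3cl1 from −0.118 to 0.904. Depth limits what can be said of genes of few reads, such as Tap1 (9 reads in each si-SCR sample).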
